A study of Mus musculus with 21 samples.

Results

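The genes described here are Trp53, which encodes the transcription factor p53, and 9 of its target genes, namely Mdm2, Cdkn1a, Ccng1, Trp53inp1, Zmat3, Phlda3, Sesn1, Aen and Ei24. They were chosen by name, with earlier results of these data known. All 10 of the 10 listed genes are rows of each of the 4 expression tables, which hold 11670, 11868, 11355 and 13085 genes. The cells were mouse Ba/F3 cells, a pro-B line whose parental cells depend on interleukin-3. They expressed JAK2-V617F, the activated form of the cytokine receptor kinase JAK2, which the study reports to make their growth independent of the factor. RNA was sequenced from 21 libraries in 7 groups of 3. Ruxolitinib, a type I inhibitor of JAK1 and JAK2, and CHZ868, a type II JAK2 inhibitor, were each used at 1 μM. The groups Ruxo_treated, CHZ_treated and DMSO_treated were exposed for 6 h. Ruxo_wash and CHZ_wash were exposed for 1 h, washed 3 times with PBS and kept for 6 h without inhibitor, and each washout has its own DMSO controls, here DMSO_wash for ruxolitinib and DMSO_wash_exp3 for CHZ868. All groups share the JAK2-V617F background, and nothing in the labels says how many clones the line holds or that the libraries of a group came from separate cultures, so the p-values measure the spread between these libraries, which may be technical.

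p53 is a stress-activated transcription factor that is kept low by the ubiquitin ligase Mdm2 and by its relative Mdm4, and that switches on genes for cell cycle arrest, cell death, DNA repair and metabolism. Mdm2 is itself a p53 target, which closes a feedback loop. p53 activity is regulated mostly at the protein level, through protein stability and modification, so that the Trp53 transcript and the transcripts of its targets are separate readouts. Many target genes, Cdkn1a among them, also respond to other transcription factors.

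p53 binds paired copies of a 10-base half-site. The p53 half-site consensus was searched in RefSeq promoter windows of 300 bases (GRCm38.p6, from 250 bases before to 50 bases after each annotated start), where its pattern reads the same on both strands. A window row was found for 8 of the 10 genes, with 11 windows in all, and the sequences of Trp53inp1 and Zmat3 were not analysed here. Pairs of half-sites with at most 1 mismatch were found for Ccng1 and Cdkn1a, and occurred in 0.219% of all 32851 windows. They are shown with the pair for Sesn1, which has 2 mismatches, a class found in 1.35% of windows, and with the exact half-site of Mdm2, of a kind found in 8.36% of windows. These 4 genes were higher after CHZ868. Of the genes with an exact half-site that are not shown, Ei24 was also higher, Aen was lower and Trp53 did not pass. The capitals mark the match.
Ccng1, chr11:40755442-40755501, minus strand: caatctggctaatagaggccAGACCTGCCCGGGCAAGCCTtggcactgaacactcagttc
Cdkn1a, chr17:29090908-29090967, plus strand: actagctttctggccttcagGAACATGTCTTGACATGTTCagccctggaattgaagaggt
Sesn1, chr10:41887233-41887295, plus strand: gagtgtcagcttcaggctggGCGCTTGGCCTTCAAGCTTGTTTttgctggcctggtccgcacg
Mdm2, chr10:117710925-117710954, minus strand: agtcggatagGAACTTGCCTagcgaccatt
The Ccng1 pair began 195 bases before the RefSeq start, the Cdkn1a pair 51 bases before it, and the Sesn1 pair 186 bases before the start of the shorter Sesn1 transcript, inside the gene as the longest transcript draws it. The Mdm2 half-site began 186 bases before the start of its window's transcript. A match describes the letters of these windows and not binding. An exact half-site was found for 7 of the 8 genes with a window, Trp53, Aen and Ei24 among them, and none was found in the window of Phlda3. Another window of Cdkn1a and another of Sesn1 held no match.

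In the GENCODE annotation of GRCm38, Trp53 (ENSMUSG00000059552.13) lies at chr11:69580359-69591873, Mdm2 (ENSMUSG00000020184.15) at chr10:117688875-117710758, Cdkn1a (ENSMUSG00000023067.14) at chr17:29090976-29100727, Ccng1 (ENSMUSG00000020326.7) at chr11:40748552-40755311, Sesn1 (ENSMUSG00000038332.13) at chr10:41809935-41908424 and Aen (ENSMUSG00000030609.18) at chr7:78895854-78911209. Trp53 has a pseudogene, Trp53-ps, that is 94.9% identical over 1090 bases, so the assignment of its reads is uncertain. Exons of Cdkn1a overlap 273 bases of a gene on the other strand (AC167363.2) and exons of Ei24 overlap 324 bases of the antisense gene Gm26787. Whether the counting used strand is not given in the sources used here.

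The values are log2 CPM (reads scaled to a library total adjusted by TMM normalization). Reads on listed genes could be recovered for 15 libraries, from 7880000 to 10670000 per library. Of 7 haematopoietic marker genes all 7 were listed in every table, of 9 pro-B markers only Cd79a and Cd79b were listed, and no marker of T cells (4) or epithelium (3) was. Mitochondrial transcripts set some libraries apart. Summed over the listed mitochondrial genes, they stood at 1.29% to 1.36% of the nominal CPM total in DMSO_treated and at 5.16% to 6.76% in CHZ_treated. The adjusted CPM of a library do not add up to that total, so this mitochondrial share is not an exact share of reads. The share was 3.67% in Ruxo_treated replicate 2, against 1.68% and 1.70% in the other two, and 5.64% in DMSO_wash_exp3 replicate 3, against 2.25% and 2.86% in the other two. Several values that these libraries move are given with and without them.

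Per kilobase of the longest coding transcript, Cdkn1a (97.1 ± 5.8 CPM per kb, SD, n = 3), Trp53 (96.0 ± 2.9) and Ccng1 (92.0 ± 2.0) were the most abundant of the 10 in DMSO_treated cells. These levels lie within or close to one another's spread. Mdm2 followed at 55.1 ± 1.2 and Ei24 at 28.7 ± 1.4. Trp53inp1 stood at 19.8 ± 1.6 and Zmat3 at 15.2 ± 0.68. Sesn1 at 11.6 ± 1.3, Aen at 10.7 ± 0.46 and Phlda3 at 10.3 ± 0.89 were the lowest and did not differ beyond their spread.

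After 6 h of CHZ868 most of the target genes chosen by name were higher and Trp53 itself did not pass the test. The cell cycle genes Ccng1 and Cdkn1a, the stress gene Sesn1, the death genes Ei24 and Trp53inp1 and the feedback gene Mdm2 rose, and Aen, which encodes a p53-induced nuclease, fell. The question was which transcripts change when the mutant kinase is inhibited, and each gene was tested with limma across all 11670 genes with Benjamini-Hochberg adjustment. Of the 10 genes 6 passed an adjusted p of 0.05 as higher, 1 as lower and 3 did not pass. Over all genes tested, 26.8% passed as higher and 26.4% as lower, so that a large share of the transcriptome moved in each direction. The median log2 difference of the 10 was 0.26, beside -0.01 over all genes. Since the 10 were chosen with earlier results known, their counts and medians beside all genes are descriptive.

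Ccng1 encodes cyclin G1, a p53 target that binds the phosphatase PP2A and acts on Mdm2. Its log2 CPM was 8.37, 8.32 and 8.31 in the DMSO_treated libraries and 9.09, 9.05 and 9.16 in the CHZ_treated libraries. The groups were far apart, and the log2 difference of 0.77 (SE 0.055, adjusted p = 2.27e-08) was the largest rise among the 10 genes. Sesn1, which encodes sestrin 1, a stress protein that restrains mTORC1, stood at 5.29, 5.57 and 5.56 in DMSO_treated and at 6.13, 6.09 and 5.92 in CHZ_treated. All of its CHZ_treated libraries lay above all DMSO_treated ones (log2 difference 0.58, SE 0.10, adjusted p = 0.000199).

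Cdkn1a encodes p21, the cyclin-dependent kinase inhibitor through which p53 stops the cell cycle. It stood at 7.59, 7.75 and 7.63 log2 CPM in DMSO_treated and at 7.96, 8.01 and 8.09 in CHZ_treated. The groups did not overlap, and the log2 difference was 0.36 (SE 0.064, adjusted p = 0.000242). Mdm2 stood at 7.46, 7.46 and 7.40 in DMSO_treated and at 7.75, 7.61 and 7.67 in CHZ_treated. It was higher in every CHZ_treated library, but by a small amount (0.24, SE 0.061, adjusted p = 0.0045), and under quantile normalization the difference was 0.13 with an adjusted p of 0.0883.

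Ei24, a p53-induced gene of the endoplasmic reticulum that has a part in autophagy and cell death, stood at 6.09, 6.10 and 5.97 in DMSO_treated and at 6.73, 6.46 and 6.48 in CHZ_treated. The groups did not overlap (log2 difference 0.50, SE 0.087, adjusted p = 0.000196). Trp53inp1, a nuclear and autophagy protein that promotes p53 activity, stood at 6.86, 6.75 and 6.62 in DMSO_treated and at 7.24, 7.07 and 6.79 in CHZ_treated. Here the groups overlapped. Its difference of 0.29 (SE 0.099) passed with an adjusted p of 0.0224, but did not pass without CHZ_treated replicate 1 (0.19, adjusted p = 0.0997), CHZ_treated replicate 2 (adjusted p = 0.0753), DMSO_treated replicate 2 (0.0596) or DMSO_treated replicate 3 (0.118), nor under quantile normalization (0.0938) or without the mean-variance trend of the fit (0.114).

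Aen encodes apoptosis-enhancing nuclease. It stood at 5.73, 5.80 and 5.68 log2 CPM in DMSO_treated and at 4.96, 4.90 and 5.11 in CHZ_treated. It was the only one of the 10 that passed as lower in the main fit (log2 difference -0.75, SE 0.10, adjusted p = 1.68e-05), and its groups did not overlap.

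Trp53 did not pass. It stood at 7.45, 7.47 and 7.54 in DMSO_treated and at 7.25, 7.41 and 7.54 in CHZ_treated, with a log2 difference of -0.09 (95% interval -0.24 to 0.07, adjusted p = 0.321). Without CHZ_treated replicate 3 the difference was -0.16 with an adjusted p of 0.0448, and under quantile normalization -0.20 with an adjusted p of 0.0290. Zmat3, which encodes an RNA-binding p53 target, differed by 0.05 (interval -0.11 to 0.20). Phlda3, which encodes a repressor of Akt, stood at 3.79, 3.89 and 4.03 in DMSO_treated and at 4.14, 3.05 and 4.08 in CHZ_treated. The low library, CHZ_treated replicate 2, held 61 Phlda3 reads against 175 and 134 in the other two. The difference was -0.15 (interval -0.66 to 0.36) with that library and 0.20 (adjusted p = 0.333) without it, so the direction rests on 1 library.

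**Figure D1:**
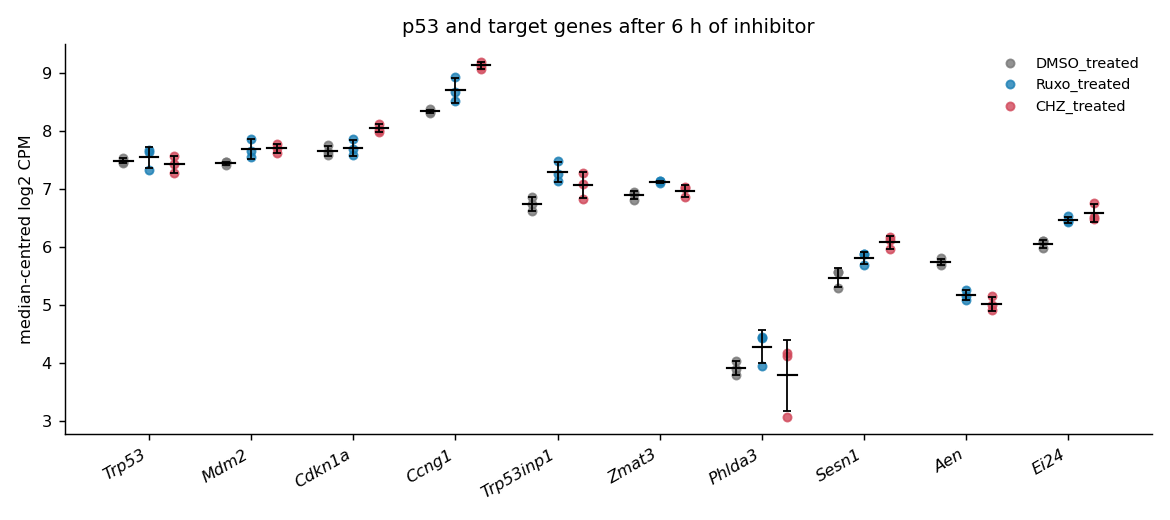
Median-centred log2 CPM of the 10 genes (x axis) in DMSO_treated, Ruxo_treated and CHZ_treated libraries, 3 points per group, with black lines for the mean and 1 SD. Ccng1, Sesn1, Ei24, Mdm2 and Cdkn1a lie higher and Aen lower in CHZ_treated than in DMSO_treated without overlap, and 1 CHZ_treated library is low for Phlda3.

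After 6 h of ruxolitinib at the same dose, Mdm2, Ccng1, Trp53inp1, Zmat3, Sesn1 and Ei24 lay higher and Aen lower than in every DMSO_treated library. Ruxo_treated values come from a table that was normalized separately, so the comparison was made after centring each library on the median of the 11624 genes that both tables hold, as a description without a test. Centring moved no library by more than 0.05 on the log2 scale. Of the 10 genes 6 were higher without overlap and 1 lower, against 24.6% higher and 20.1% lower over all shared genes. No gene of the 10 reached a log2 difference of 0.58 without overlap, which 4.20% of the shared genes did as higher and 7.32% as lower. The median difference of the 10 was 0.29, beside 0.04 over all shared genes. CHZ_treated and Ruxo_treated share their DMSO_treated controls, so their values are set side by side only.

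Trp53inp1 showed the largest rise of the 10 with ruxolitinib. Its centred log2 CPM was 7.47, 7.13 and 7.25 in Ruxo_treated and 6.86, 6.74 and 6.62 in DMSO_treated, a difference of 0.54 beside 0.29 with CHZ868. Ei24 stood at 6.45, 6.53 and 6.43 in Ruxo_treated against 6.09, 6.09 and 5.97, a difference of 0.42 beside 0.50 with CHZ868. Both genes were higher in every library of either inhibitor than the mean of DMSO_treated.

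Ccng1 stood at 8.66, 8.92 and 8.51 in Ruxo_treated against 8.37, 8.32 and 8.31, a centred difference of 0.36 beside 0.77 with CHZ868, and of 0.25 without Ruxo_treated replicate 2. Sesn1 stood at 5.87, 5.87 and 5.68 against 5.29, 5.56 and 5.56, a difference of 0.34 beside 0.58. Aen stood at 5.09, 5.15 and 5.26 against 5.73, 5.80 and 5.68, a difference of -0.57 beside -0.75. For each of these 3 genes the ruxolitinib value was the smaller in size.

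Mdm2 stood at 7.65, 7.87 and 7.54 in Ruxo_treated against 7.46, 7.45 and 7.41, a difference of 0.25 beside 0.24, and without Ruxo_treated replicate 2 of 0.16. Zmat3 was tight at 7.13, 7.14 and 7.10 against 6.95, 6.81 and 6.90, a difference of 0.23 beside 0.05. Cdkn1a overlapped, at 7.57, 7.85 and 7.69 in Ruxo_treated against 7.59, 7.75 and 7.63. Its difference of 0.05 became -0.02 without Ruxo_treated replicate 2, the library with the high mitochondrial share. Trp53 (0.06) and Phlda3 (0.37) overlapped as well, and Phlda3 was at 0.53 and above all controls without that library.

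Set against each other at the matched dose and time, Ruxo_treated was lower than CHZ_treated without overlap for Ccng1 (-0.43), Cdkn1a (-0.34) and Sesn1 (-0.27), and higher for Zmat3 (0.16). That is 3 of the 10 genes lower and 1 higher, against 16.7% and 18.6% of the shared genes. The other 6 overlapped, with differences of 0.15 for Aen, -0.11 for Ei24, -0.02 for Mdm2, 0.12 for Trp53, 0.23 for Trp53inp1 and 0.49 for Phlda3. Single libraries decide several of these. Phlda3 was 0.14 without CHZ_treated replicate 2, and Trp53inp1 0.11 without CHZ_treated replicate 3. Trp53 was 0.05 without CHZ_treated replicate 1 and 0.22 without Ruxo_treated replicate 1. Without Ruxo_treated replicate 2, Ccng1 was at -0.54, Cdkn1a at -0.41, Sesn1 at -0.30 and Mdm2 at -0.11. No test or interval is given for the 10 pairs, because the tables were normalized separately. A lack of separation among 3 libraries does not show that the inhibitors act alike.

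**Figure D2:**
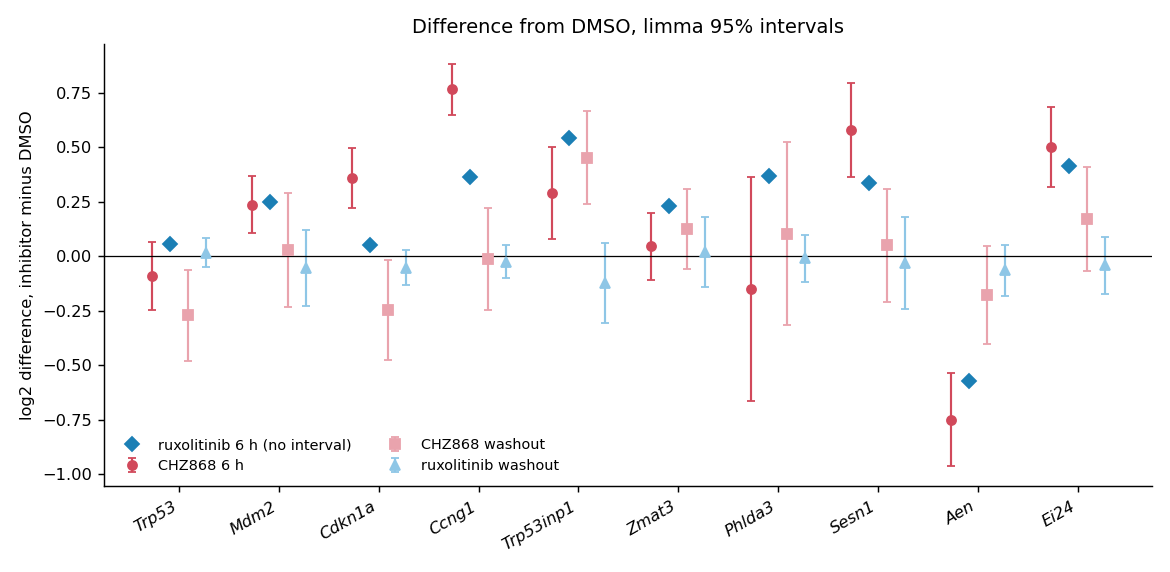
Log2 difference from the DMSO controls (y axis) of the 10 genes (x axis) after CHZ868 for 6 h, ruxolitinib for 6 h, CHZ868 washout and ruxolitinib washout. Bars are limma 95% intervals, and ruxolitinib for 6 h has none. The 6 h differences reach 0.77 for Ccng1 and -0.75 for Aen, while the differences after ruxolitinib washout all lie within 0.13 of 0.

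In cells that had been washed free of CHZ868, only Trp53inp1 passed. It stood at 6.91, 6.66 and 6.64 log2 CPM in CHZ_wash against 6.28, 6.30 and 6.27 in DMSO_wash_exp3. The 3 control libraries lay within 0.03 of one another, all CHZ_wash libraries lay above them, and the difference was 0.45 (SE 0.097, limma adjusted p = 0.0407). That is 1 of the 10 genes higher and 0 lower at an adjusted p of 0.05, against 1.96% higher and 2.07% lower among all 11355 genes. The call depended on which libraries were kept, and the direction of the difference did not. Without CHZ_wash replicate 1, 2 or 3, or without DMSO_wash_exp3 replicate 1, the adjusted p was between 0.125 and 0.163, with differences of 0.37 to 0.50, and at most 1 gene of the whole table passed.

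Trp53 stood at 8.03, 7.74 and 7.82 in CHZ_wash against 8.07, 8.13 and 8.19 in DMSO_wash_exp3. All CHZ_wash libraries were below all controls, with a difference of -0.27 (SE 0.094) that missed the threshold (adjusted p = 0.114). Cdkn1a stood at 8.20, 7.99 and 8.03 against 8.19, 8.25 and 8.53. These groups overlapped, and the difference was -0.25 (adjusted p = 0.177), or -0.14 without DMSO_wash_exp3 replicate 3, the library with the high mitochondrial share. Zmat3 stood at 7.34, 7.23 and 7.18 against 7.08, 7.16 and 7.13. All CHZ_wash libraries were above all controls, with a difference of 0.13 that did not pass (adjusted p = 0.376). The other 6 genes differed by between -0.18 (Aen) and 0.17 (Ei24), none with an adjusted p under 0.3.

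After ruxolitinib washout no difference from DMSO_wash was found for the 10 genes, which does not show that their levels are equal. None of the 10 passed, and 0 passed in each leave-one-out and each other setting tried, beside 0.0229% of the 13085 genes (3 genes). No member reached an unadjusted p under 0.05. The differences ran from -0.12 (Trp53inp1, 95% interval -0.31 to 0.06) to 0.02 (Zmat3), with SEs of 0.028 to 0.087. Cdkn1a stood at 7.84, 7.91 and 7.83 in Ruxo_wash against 7.91, 7.93 and 7.89 in DMSO_wash, a difference of -0.05 (interval -0.13 to 0.03). Mdm2 stood at 6.32, 6.47 and 6.59 against 6.50, 6.49 and 6.54 (interval -0.23 to 0.12). Trp53 differed by 0.02 (interval -0.05 to 0.09). Levels in this table are not compared with the others: Zmat3 stood at 4.60 to 4.75 here and Phlda3 at 5.73 to 5.81, beside 6.82 to 7.34 and 3.05 to 4.48 in the other tables, and the depth of these 6 libraries is unknown.

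**Figure D3:**
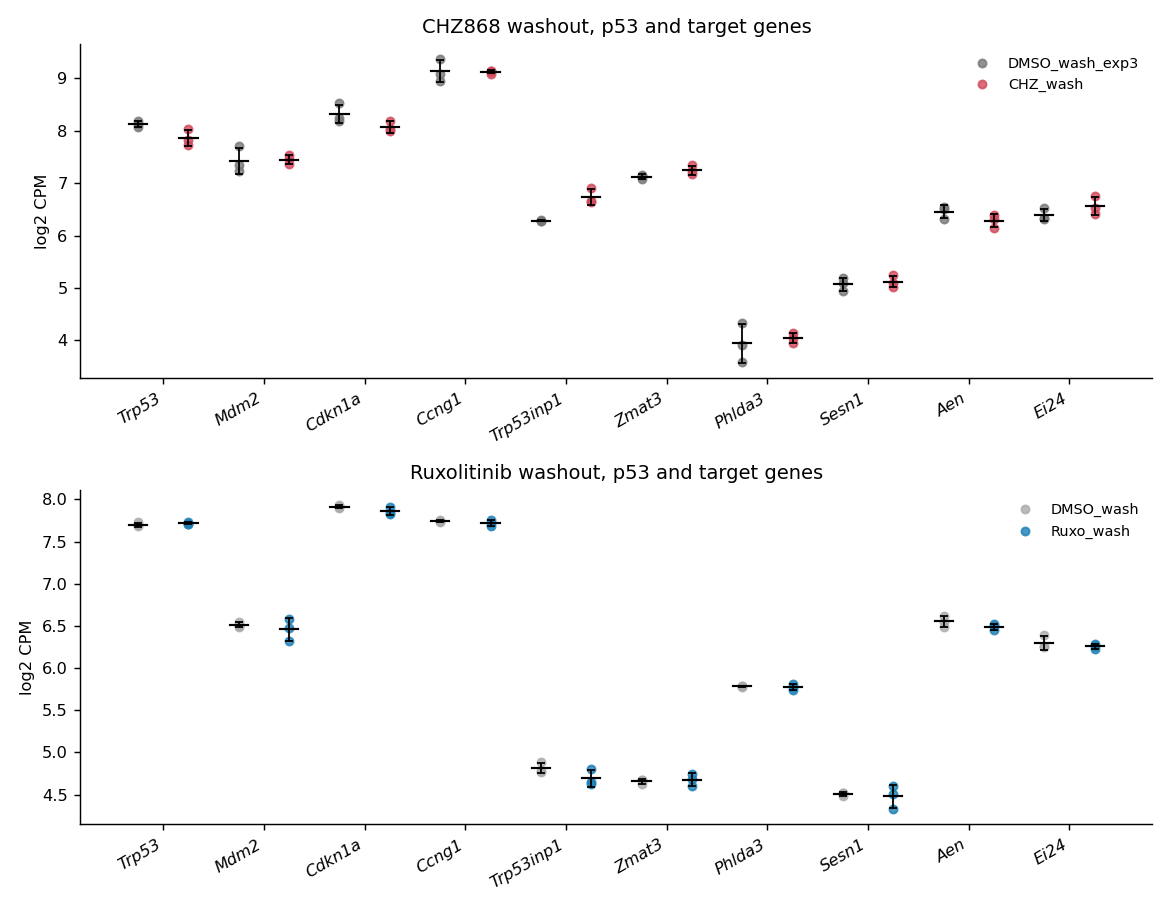
Log2 CPM of the 10 genes (x axis) in the CHZ868 washout (top) and ruxolitinib washout (bottom), 3 points per group, with black lines for the mean and 1 SD. In the top panel Trp53inp1 and Zmat3 lie above and Trp53 below all of their controls, of which only the Trp53inp1 difference passed the test, and the groups overlap for all 10 genes in the bottom panel.

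The washout effects of the inhibitors, each against its own controls, were compared in one limma fit over 10078 shared genes. Inhibitor, experiment and table differ together between these washouts and cannot be told apart. The effects differed for 1 of the 10 genes, Trp53inp1, whose ruxolitinib effect was lower by 0.58 (log2 difference of differences -0.58, SE 0.12, adjusted p = 0.0379), against 1.90% of all genes. Leaving out single libraries took the adjusted p to between 0.0262 and 0.0897, and only 2 of the 12 such fits kept it under 0.05, those without DMSO_wash_exp3 replicate 2 or 3. Without the mean-variance trend the adjusted p was 0.0692. For Trp53 the difference was 0.29 (95% interval 0.07 to 0.51, adjusted p = 0.142) and for Cdkn1a 0.19 (interval -0.06 to 0.45). With 1 library left out the Cdkn1a difference ran from 0.09 to 0.26. The intervals of the other 7 genes all held 0, and the widest was that of Phlda3, from -0.55 to 0.33.

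The effects of CHZ868 at 6 h and after washout, with separate controls, differed for 4 of the 10 genes, against 47.1% of 11175 genes. The 6 h effect was higher for Ccng1 (0.78, SE 0.12, adjusted p = 8.36e-05), Cdkn1a (0.61, SE 0.13, adjusted p = 0.000910) and Sesn1 (0.53, SE 0.16, adjusted p = 0.0105). It was lower for Aen (-0.57, SE 0.14, adjusted p = 0.00253). All 4 passed in each of the 12 fits with 1 library left out. Exposure time, washing and the table differ together between these experiments and cannot be told apart. Ei24 (0.33, adjusted p = 0.0682) did not pass, except without CHZ_wash replicate 1 (0.42, adjusted p = 0.0234), and Mdm2 (0.21, adjusted p = 0.232) did not pass.

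The genes most like these in their pattern were sought over 12 inhibitor libraries, each taken as its difference from its own DMSO group, among 9973 genes that all 4 tables hold. The libraries of a group share their controls, so the correlations are descriptive. For Cdkn1a the closest were Arhgdib (Pearson r 0.982) and the mitochondrially encoded mt-Cytb (0.982) and mt-Nd2 (0.979). For Mdm2 they were Pan3 (0.980), Bora (0.938) and Ddias (0.935), and for Trp53 C2cd2l (0.931), Psmd3 (0.917) and Aup1 (0.916).

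The mitochondrial transcripts therefore moved with some of the 10 genes and not with others. Across the 12 libraries the correlation with the median difference of 14 mitochondrial genes was 0.974 for Cdkn1a, 0.949 for Ccng1, 0.836 for Sesn1 and -0.787 for Aen. It was 0.694 for Mdm2, 0.686 for Ei24 and 0.412 for Trp53. It was -0.02 for Trp53inp1, -0.07 for Zmat3 and -0.26 for Phlda3. The 4 genes with correlations furthest from 0 are those whose CHZ868 effect differed between 6 h and washout. This is no separate observation, since the same libraries form the ends of the mitochondrial range. The mitochondrial difference was 2.15 to 2.47 in CHZ_treated and -1.02 to -0.86 in CHZ_wash, so the correlations rest largely on differences between groups. Within Ruxo_treated the library with a mitochondrial difference of 1.46, replicate 2, also had the highest Cdkn1a and Ccng1, while the other two had mitochondrial differences of 0.21 and 0.09. The part of RNA quality or of the mitochondrial transcripts in these differences was not tested.

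**Figure D4:**
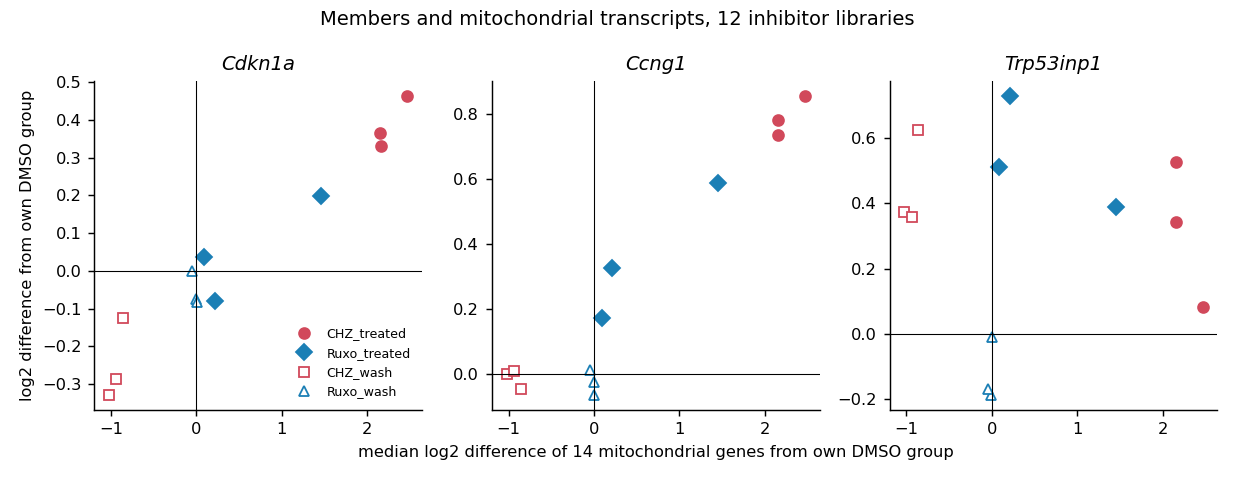
Log2 difference of Cdkn1a, Ccng1 and Trp53inp1 from the mean of the own DMSO group (y axes) against the median log2 difference of 14 mitochondrial genes (x axis), 1 point per inhibitor library, 12 libraries in 4 groups. Cdkn1a is lowest in CHZ_wash and highest in CHZ_treated, as the mitochondrial difference is. Ccng1 rises with it among the 6 h libraries but is near 0 in both washout groups, and Trp53inp1 shows no such order.

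Around these genes, 80 further genes of the p53 pathway were read in 6 lists. Of 65 measured in the CHZ868 6 h table, 19 passed as higher, 19 as lower and 27 did not pass. These are shares of 29.2% in each direction, close to those of all genes. The pool joins regulators and targets. Among the target lists, those for cell cycle, death and signalling held more lower than higher genes. The metabolism list held 4 of each, and the DNA repair list 1 higher and 0 lower. The regulators of p53 held 9 higher and 4 lower of 17 measured, with a median of 0.17. Ppm1d, the phosphatase that turns p53 signalling off (0.63, SE 0.13, adjusted p = 0.000709), and Hipk2, a kinase that activates p53 (0.61, SE 0.078, adjusted p = 1.25e-05), were higher. Mdm4, the inhibitor of p53 (-0.76, SE 0.053, adjusted p = 1.59e-08), and Atm, the DNA damage kinase (-0.49, SE 0.081, adjusted p = 0.000124), were lower. Activators and inhibitors of p53 thus stood on both sides.

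The counts of the other lists are small, and are to be read beside the 26.8% higher and 26.4% lower of all genes. The cell cycle targets held 1 higher and 4 lower of 9 measured, with a median of -0.45. Tob1, an antiproliferative gene, rose by 1.10 (SE 0.11). Plk3, a stress-activated kinase, and Sfn, which encodes 14-3-3 sigma, fell by 1.18 (SE 0.26) and 1.00 (SE 0.36). Plk3 and Sfn were weakly expressed. Their mean log2 CPM was 2.89 and 1.93 over the 6 h and washout libraries of CHZ868 and its controls, beside 6.10 for Tob1. The death targets held 2 higher and 3 lower of 10 (median -0.05). Among them Tnfrsf10b, a death receptor (0.45, SE 0.16), and Cdip1 (0.34, SE 0.095) were higher, and Siva1 (-0.81, SE 0.15) and Triap1, an inhibitor of cell death (-0.39, SE 0.16), were lower.

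Of the 8 DNA repair targets 1 passed, the translesion polymerase gene Polk (0.60, SE 0.12). The metabolism targets held 4 higher and 4 lower of 13 (median 0.13). The ribosomal protein gene Rps27l (0.63, SE 0.15) and the adenylate kinase gene Ak1 (0.50, SE 0.18) were higher. Tigar, a regulator of glycolysis (-0.85, SE 0.29), and Fdxr, which encodes ferredoxin reductase (-0.79, SE 0.14), were lower. The signalling targets held 2 higher and 4 lower of 8 (median -0.17). Traf4 (0.85, SE 0.11) and Inpp5d, which encodes the phosphatase SHIP1 (0.26, SE 0.069), were higher. The cytokine genes Csf1 (-1.86, SE 0.29) and Lif (-1.67, SE 0.20) were lower. Tigar, Csf1 and Lif were weakly expressed as well, with a mean log2 CPM of 2.72, 3.10 and 3.30 over the 6 h and washout libraries of CHZ868 and its controls. All genes named from these lists passed an adjusted limma p of 0.05, with Triap1 closest to it (adjusted p = 0.0487).

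With ruxolitinib for 6 h, 23 of the 65 were higher and 13 lower than DMSO_treated without overlap, and 4 and 5 of these by at least 0.58. These are 35.4% and 20%, and 6.15% and 7.69%, of the 65, beside 24.6% and 20.1%, and 4.20% and 7.32%, of all shared genes, so the shares of lower genes are near the background. Tob1 (0.81), Traf4 (0.67), Ak1 (0.61) and Inpp5d (0.59) were the 4 higher ones. Csf1 (-1.56), Lif (-1.26), Tigar (-1.15), Plk3 (-0.83) and Triap1 (-0.61) were the 5 lower ones. Without Ruxo_treated replicate 2, the library with the high mitochondrial share, Triap1 was at -0.18 and Traf4 at 0.53. With CHZ868, against the same controls, the values of Ak1, Inpp5d, Tigar and Triap1 were 0.50, 0.26, -0.85 and -0.39.

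**Figure D5:**
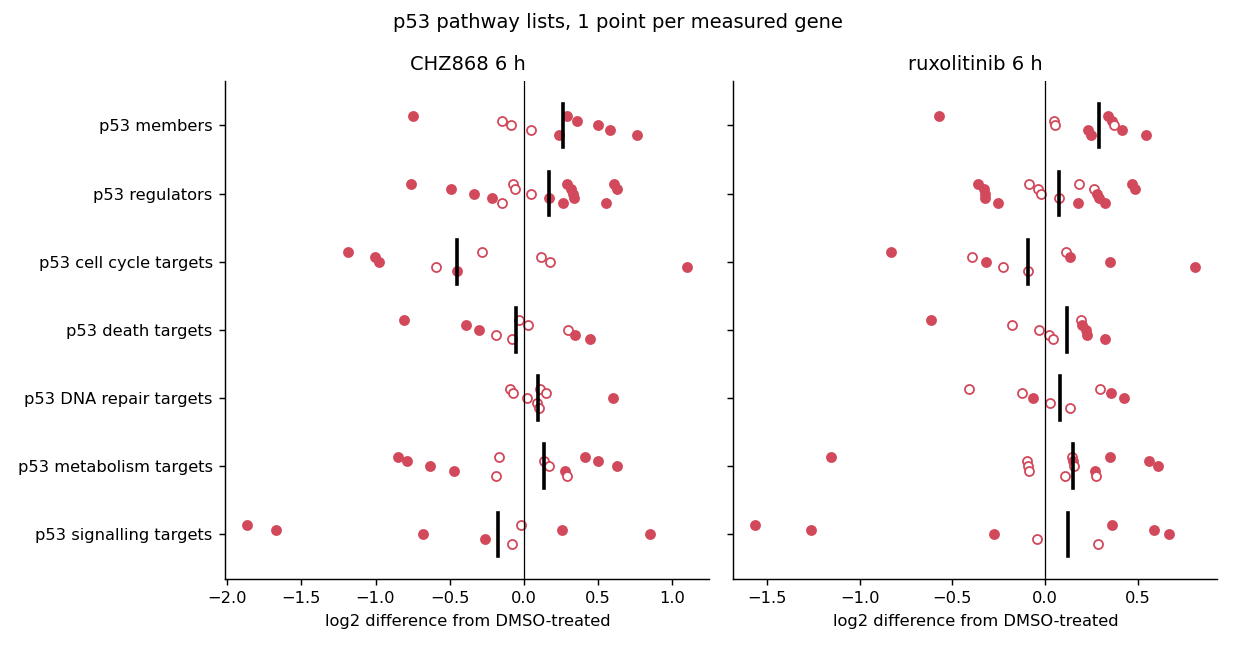
Log2 difference from DMSO_treated (x axis) after CHZ868 (left) and ruxolitinib (right) for 6 h, 1 point per measured gene, for the 10 genes (top row) and the 6 pathway lists, with a black line at each median. Filled points passed the adjusted p of 0.05 (CHZ868) or did not overlap the controls (ruxolitinib). The medians of the 10 genes are 0.26 and 0.29, and Csf1 and Lif are the points furthest to the left.

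After washout few genes of the pathway lists passed. In CHZ_wash, Mdm4 was higher (0.48, SE 0.081, adjusted p = 0.0296) and Steap3, a metalloreductase gene, lower (-0.45, SE 0.11, adjusted p = 0.0496) among 66 measured genes, which is 1.52% in each direction beside 1.96% and 2.07% of all genes. Leaving out single libraries took the adjusted p of Mdm4 to between 0.00100 and 0.163 and that of Steap3 to between 0.0233 and 0.187, with the fits without a CHZ_wash library or without DMSO_wash_exp3 replicate 1 above the threshold. Without DMSO_wash_exp3 replicate 2 Steap3 did not pass either. In Ruxo_wash 0 of 69 passed. Mdm4 had opposite signs in the CHZ868 experiments, and its 6 h effect was lower than its washout effect by 1.25 (log2 difference of differences -1.25, SE 0.093, adjusted p = 3.48e-08). Its washout effect also differed between the washout experiments (-0.59, SE 0.10, adjusted p = 0.0225), as did that of Ascc3, a helicase gene (-0.64, SE 0.13, adjusted p = 0.0371). Inhibitor, experiment and table cannot be told apart in that contrast. Of the 12 fits with 1 library left out, 5 kept Mdm4 and 3 kept Ascc3 past the threshold, with adjusted p-values of up to 0.0692 and 0.0897. These 2 of 66 genes are 3.03%, beside 1.90% of all genes.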

How the data were processed

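Expression was analysed in 21 libraries of Ba/F3 cells with JAK2-V617F (7 groups of 3). According to the methods, the authors pseudo-aligned reads with kallisto to GRCm38 transcripts, summed them per gene, filtered low genes and normalized by TMM, while the submitters' processing notes name STAR 2.7.3a, edgeR 4.0.16 and GRCm39 without a role. In each deposited table the unit is log2 CPM. In 3 of the 4 tables a constant below 1 CPM had been added. For the ruxolitinib washout table the lowest value was taken as such a constant, and its CPM values rest on that choice. Whole reads were recovered from 3 of the 4 tables (100% of low values whole within 0.05 reads). The values of the ruxolitinib washout table gave no whole reads, and its depth is unknown.

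Each inhibitor group was compared with its own DMSO group by limma 3.58.1 with a mean-variance trend in R 4.3.3, over all genes of the table, with Benjamini-Hochberg adjustment at 0.05 and 95% intervals. Effects were compared by a contrast over the genes of both tables. Ruxo_treated was compared by median centring, with no test. The fits were tested on simulated data. The members and lists were chosen with earlier results of these data known. The text names all 10 members, up to 2 highest and 2 lowest called genes of each pathway list at 6 h (with ruxolitinib, those past 0.58), any called list gene after washout, and the 3 genes most correlated with Trp53, Mdm2 and Cdkn1a. Alternatives were scaling, a pseudocount of 1, a mean log2 CPM of at least 1, voom weights, no trend, a replicate block and leaving out each library. Promoter windows are from RefSeq (GRCm38.p6), positions from GENCODE (GRCm38).

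Myeloid and fibroblast marker genes were listed at low levels. Csf1r was listed in every table, Itgam in the washout tables and Lyz2 and Col1a1 in the ruxolitinib washout table, and the summed myeloid level was 2.48 to 30.9 CPM over all libraries.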

Additional observations from a re-analysis of the deposited data

Results flagged for a closer look

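Members whose effect differed between experiments, by the limma contrast of the effects, were the following. The CHZ868 effect at 6 h differed from that after washout for Ccng1 (0.78, adjusted p = 8.36e-05), Cdkn1a (0.61, adjusted p = 0.000910), Sesn1 (0.53, adjusted p = 0.0105) and Aen (-0.57, adjusted p = 0.00253). The ruxolitinib washout effect differed from the CHZ868 washout effect for Trp53inp1 (-0.58, adjusted p = 0.0379), with CHZ_wash above its controls in 3 of 3 libraries and Ruxo_wash below the mean of its controls in 3 of 3. This last call did not pass in 10 of the 12 fits with 1 library left out (adjusted p of up to 0.0897), without the mean-variance trend (0.0692) or under the replicate block (0.0938).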

How the results depend on the processing

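The 7 calls among the 10 genes after CHZ868 for 6 h ranged from 6 to 8 over all settings, and the 4 calls for 6 h against washout kept their direction and side throughout. With ruxolitinib for 6 h, 7 or 8 genes did not overlap. The CHZ868 washout call was lost without the mean-variance trend (0 members, 0 genes against 457) and ranged from 0 to 1 members, and from 0 to 1426 genes, with 1 library left out. For ruxolitinib washout the 3 genes became 9 without the trend, 0 under the replicate block and 0 to 1 with 1 library left out. For the contrast of washouts the 191 genes and 1 member became 14 and 0 without the trend, 6 and 0 under the replicate block, and 5 to 628 and 0 to 1 with 1 library left out. Ruxolitinib against CHZ868 gave 4107 genes without overlap, and 4633 to 6671 with 1 library left out, the highest without Ruxo_treated replicate 2. The cause of these shifts was not tested. Where genes are counted by overlap, any left-out library leaves fewer values to overlap.

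Same-numbered libraries did not deviate together (correlations of -0.05 to 0.05), so the replicate block adds only a number. It took Trp53inp1 in the contrast of washouts to an adjusted p of 0.0938 and changed no other call of a member.

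Signs turned for small values. Under quantile normalization Zmat3 after CHZ868 became -0.047 and Ccng1 after CHZ868 washout 0.0048. With 1 library left out, Phlda3 ranged from -0.34 to 0.20 after CHZ868 and from -0.45 to 0.097 for 6 h against washout. After CHZ868 washout the ranges were -0.10 to 0.10 for Ccng1, -0.070 to 0.17 for Mdm2, -0.072 to 0.30 for Phlda3 and -0.018 to 0.11 for Sesn1. After ruxolitinib washout they were -0.067 to 0.0052 for Ei24, -0.12 to 0.017 for Mdm2, -0.026 to 0.011 for Phlda3, -0.091 to 0.045 for Sesn1 and -0.014 to 0.059 for Zmat3. For the contrast of washouts they were -0.13 to 0.079 for Ccng1, -0.22 to 0.016 for Mdm2 and -0.31 to 0.064 for Phlda3. None of these values passed the threshold.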
